A study of Mus musculus with 16 samples.

Results

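The nitric oxide and cGMP pathway of the aorta was read through 10 genes, chosen by name among the 54532 genes of the deposited table. They are the endothelial nitric oxide synthase Nos3, the soluble guanylyl cyclase subunits Gucy1a1 and Gucy1b1, the natriuretic peptide receptors Npr1, Npr2 and Npr3, the cGMP-dependent protein kinase Prkg1, and the phosphodiesterases Pde5a, Pde1a and Pde3a. The rule goes by gene name and sets no threshold on a measured value, and all 10 passed the filter of a mean of 0.5 FPKM that left 15007 genes for testing. The 16 RNA-seq libraries came from aortas stripped of adventitia. All donors were male Apoe-/- mice of strain C57BL/6j, aged 8 to 12 weeks, so both groups lacked apolipoprotein E, a lipid carrier whose loss raises blood cholesterol. The library names of both groups begin with WT, and what these letters stand for is not known here. For 7 days an osmotic pump delivered either Ang II (angiotensin II, a peptide that constricts arteries) at 1000 ng per kg per min (8 libraries) or saline (8 libraries). The series' text counts 8 mice per group. The comparison asks how the aortic transcriptome differs after a week of Ang II.

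Nitric oxide is made from arginine in endothelial cells and passes into the smooth muscle beneath, where it binds the haem of soluble guanylyl cyclase, a heterodimer of an alpha and a beta subunit. The cGMP that this enzyme makes activates cGMP-dependent protein kinase, which relaxes smooth muscle by lowering calcium and the phosphorylation of myosin. Natriuretic peptides raise cGMP by another route, through receptors that are themselves cyclases in the membrane, and phosphodiesterases end the signal by hydrolysing cGMP.

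FPKM are fragment numbers scaled by transcript length and by the library total. The library totals behind them ran from 15779121 to 19988727 reads in Ang II aortas and from 14606861 to 17590080 in Saline aortas. Saline 2, Saline 7 and Saline 8 stood apart from the other 5 Saline libraries on the first principal component, which held 46.9% of the variance. The 3 were set apart on these same data, so fits without them show only how far a result depends on them. On that component Ang II 2 was at 3.06 and the other Ang II libraries were at -37.1 to -28.3, and all 8 were kept. In Saline 7 and Saline 8 the genes of 6000 bases or more were low, with a median deviation of -0.32 and -0.33 (log2) from their mean over all libraries, against 0.06 to 0.20 in the other 5 Saline libraries and -0.18 to 0.14 in Ang II libraries. Saline 2 was at 0.004 by the same measure. The median log2 fold change of all genes tested was -0.12 on FPKM and -0.003 after median ratio scaling, a scaling of libraries to a common median gene. Smooth muscle markers were high in every library, with summed levels of 8622 to 13760 FPKM in Ang II aortas and 11950 to 19410 FPKM in Saline aortas. Of the 12 markers 6 fell, where 24.9% of all tested genes fell, and 6 to 9 of the markers fell in the alternatives.

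Of the 10 genes, 4 fell in Ang II aortas, 0 rose and 6 did not pass limma's adjusted p of 0.05. Over all tested genes, 24.9% fell and 9.54% rose. The 4 were Gucy1a1, Pde5a, Npr1 and Npr2, and the median log2 fold change of the 10 was -0.56, beside -0.12 over all tested genes. In 1 of the 10, Npr1, every Ang II library was below every Saline library, as was the case for 5.62% of tested genes. In 5 of the 10 (Gucy1a1, Gucy1b1, Pde5a, Npr1 and Npr3) every Ang II library was below each of Saline 1, 3, 4, 5 and 6, against 10.2% of tested genes. Without Saline 2, 7 and 8, 5 of the 10 fell and 0 rose, where 26.4% of tested genes fell and 8.11% rose. Those 3 were the lowest Saline libraries for Gucy1b1 and Npr3 and the highest for Npr1 and Npr2, so leaving them out moves these changes. Under median ratio scaling 3 fell and 0 rose, where 14.1% fell and 14.9% rose. With both choices 4 fell and 0 rose, where 12.5% fell and 13.1% rose, and the 4 were Gucy1a1, Gucy1b1, Pde5a and Npr3.

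**Figure D1:**
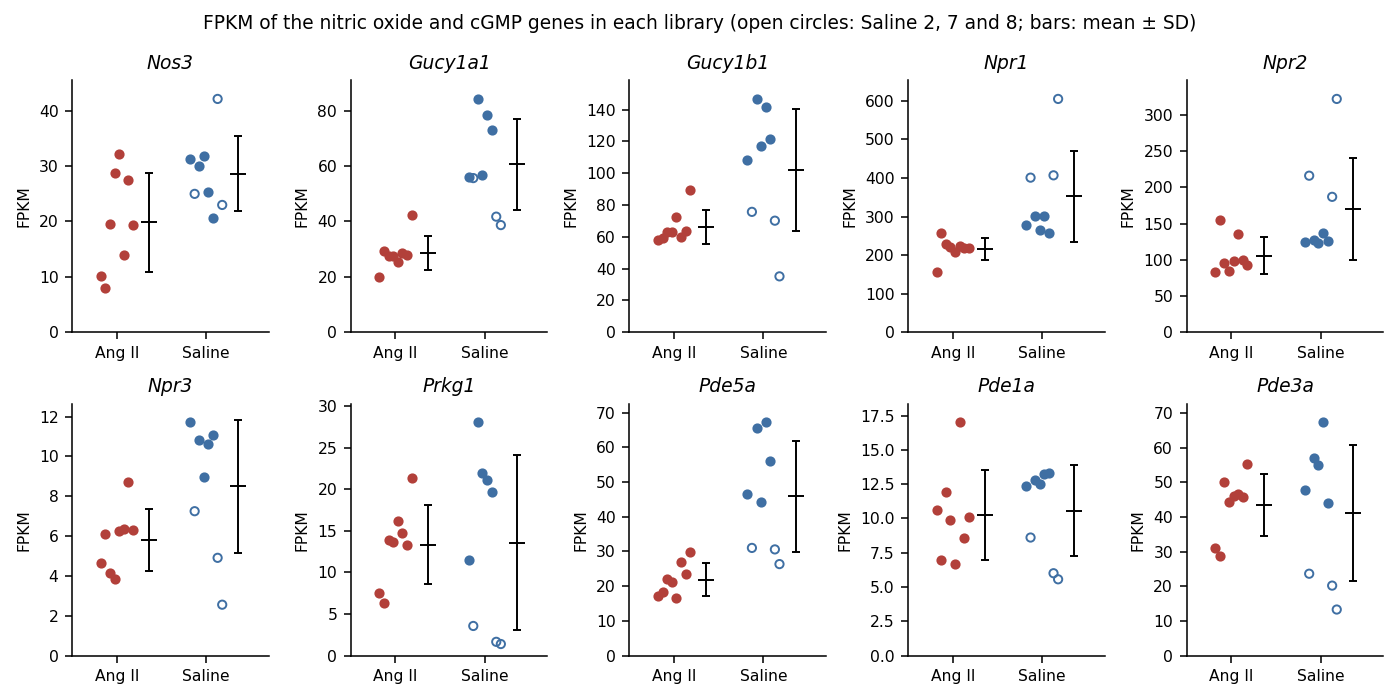
FPKM (y axis, from 0) of each of the 10 genes in every library, with Ang II left and Saline right. Points are libraries, open circles are Saline 2, 7 and 8, and bars are the mean and SD of 8 libraries. Gucy1a1 and Pde5a were low in nearly all Ang II libraries, and the Saline points of Gucy1b1, Prkg1, Npr3 and Pde3a divide into high filled and low open circles.

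Gucy1a1 and Gucy1b1 encode the alpha-1 and beta-1 subunits of the nitric oxide receptor and lie close to each other on the minus strand of chromosome 3 (GRCm38), with 17737 bases between their gene models. Gucy1a1 spans 82092427 to 82145789 and Gucy1b1 spans 82032006 to 82074689. Because the heterodimer needs both and their levels moved unequally, the sequences just before their start sites are shown, with that of Npr1, the gene whose groups did not overlap. The first is 111 bases at chr3:82145790-82145900, kept to bases upstream of the gene model. The second is 250 bases at chr3:82074712-82074961 and the third is 250 bases at chr3:90465867-90466116. All are from RefSeq (GRCm38.p6), minus strand, 5′ to 3′, and the capitals mark GC boxes (GGGCGG, or CCGCCC on the other strand).
Gucy1a1: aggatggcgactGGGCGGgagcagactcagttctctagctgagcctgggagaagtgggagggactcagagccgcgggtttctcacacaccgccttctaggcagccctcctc
Gucy1b1: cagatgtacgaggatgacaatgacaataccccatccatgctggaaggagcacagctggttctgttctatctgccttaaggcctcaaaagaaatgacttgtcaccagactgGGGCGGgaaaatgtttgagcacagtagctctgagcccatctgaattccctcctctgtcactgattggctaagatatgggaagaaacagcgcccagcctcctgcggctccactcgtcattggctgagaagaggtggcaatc
Npr1: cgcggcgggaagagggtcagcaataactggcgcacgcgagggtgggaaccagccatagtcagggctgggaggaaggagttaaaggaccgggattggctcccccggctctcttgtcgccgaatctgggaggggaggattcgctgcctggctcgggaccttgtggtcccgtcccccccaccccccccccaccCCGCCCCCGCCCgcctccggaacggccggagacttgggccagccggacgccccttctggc

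RefSeq promoter entries were found for 8 of the 10 genes, Nos3 and Pde3a being the others. The search covered the 250 bases before each RefSeq start, on both strands. A GC box was present in 5 of the 8 (Gucy1a1, Gucy1b1, Prkg1, Pde5a and Npr1), against 32.7% of 32851 promoters. A CRE (TGACGTCA, in 1.55% of promoters), an AP-1 element (TGANTCA, 6.75%) and a CArG box (1.47%) were found in 0 of the 8. An E-box (CANNTG, 66.2%) was found in 6 of the 8 and is not capitalised above. These matches are a description of the sequence and not of binding.

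Nos3 (chromosome 5, 24364810 to 24384474) makes nitric oxide in endothelial cells. Its lowest, median and highest levels were 7.88, 19.4 and 32.2 FPKM in Ang II aortas and 20.7, 27.7 and 42.1 FPKM in Saline aortas. Ang II 1, 2 and 6 were lowest, 5 of the 8 Ang II libraries were below every Saline library, and the other 3 lay inside the Saline range. The means were 19.9 ± 8.95 FPKM in Ang II and 28.6 ± 6.75 FPKM in Saline (SD, n = 8 each), with a log2 fold change of -0.61 (SE 0.25, limma adjusted p = 0.0643), which did not pass. It passed in 4 of 29 alternatives, all of them with 1 Ang II library left out (4, 5 or 7) or with a replicate block. Of the exon bases of Nos3, 32.3% overlap Gm15587 and Atg9b on the opposite strand, and strand use in the counting is not known here.

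The level of Nos3 followed that of endothelial markers across Ang II libraries. The summed level of the 14 endothelial markers ran from 287 to 1672 FPKM in Ang II aortas and from 734 to 1899 FPKM in Saline aortas, and none was at 0 in all libraries. Of these markers 1 rose (Erg) and 3 fell (Pecam1, Egfl7 and Cldn5), where 9.54% of tested genes rose and 24.9% fell. Egfl7 fell in all 29 alternatives. Erg did not pass without Saline 2, 7 and 8 (limma adjusted p = 0.154), Pecam1 under median ratio scaling (0.0826) and Cldn5 with both choices (0.0534). With both choices Erg (0.029), Flt1 (0.0232) and Kdr (0.0275) rose, and Egfl7 (0.0387) and Pecam1 (0.0492) fell. In that fit 13.1% of tested genes rose and 12.5% fell. Flt1 and Kdr were named after their values were seen. Across the 8 Ang II libraries Nos3 correlated with the mean log2 level of the 12 markers that averaged 1 FPKM or more, with r = 0.97 (exact permutation p = 2.48e-05, the smallest possible, adjusted p = 9.92e-05 over 8 relations) and Spearman's rho = 1 (exact permutation p = 4.96e-05). Without the 2 libraries farthest from the median of the markers, r was 0.99. The Saline libraries fell into sets of 5 and 3, so no correlation is given over the 8, and either set is too small for one. There the FPKM ratio of Nos3 to the geometric mean of the markers was 0.791 to 1.03 in Saline 2, 7 and 8 and 0.378 to 0.478 in the other 5, while in Ang II libraries it was 0.318 to 0.501. The log2 difference of this ratio was -0.51 over all libraries (exact permutation adjusted p = 0.0704) and -0.09 without Saline 2, 7 and 8 (adjusted p = 0.470). In whole-tissue RNA, fewer cells of a type and less RNA per cell cannot be told apart.

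Gucy1a1 had the largest fall of the 10 genes in the fit as deposited. Its lowest, median and highest levels were 20.0, 27.7 and 42.5 FPKM in Ang II aortas and 38.7, 56.5 and 84.3 FPKM in Saline aortas. In 7 of 8 Ang II libraries it was below every Saline library, and only Ang II 8 overlapped, lying above Saline 7 and Saline 8. The mean was 28.6 ± 6.31 FPKM in Ang II and 60.6 ± 16.6 FPKM in Saline (SD, n = 8 each), with a log2 fold change of -1.04 (SE 0.17, limma adjusted p = 0.000189), or -0.92 relative to the median of all genes. The fall passed in all 29 alternatives, with log2 fold changes of -1.26 to -0.88 and a highest adjusted p of 0.00437.

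Gucy1b1, the partner without which neither alpha subunit forms a working cyclase, had lowest, median and highest levels of 58.1, 62.8 and 89.7 FPKM in Ang II aortas and 35.1, 113 and 147 FPKM in Saline aortas. The Ang II libraries were close together, and the Saline libraries were not: Saline 2, 7 and 8 held 75.7, 70.1 and 35.1 FPKM, and the other 5 held 109 to 147 FPKM, above all 8 Ang II libraries. The mean was 66.0 ± 10.5 FPKM in Ang II and 102 ± 38.6 FPKM in Saline (SD, n = 8 each), with a log2 fold change of -0.52 (SE 0.23, limma adjusted p = 0.0929), which did not pass. Leaving out Saline 8 alone gave -0.71 (adjusted p = 0.00218), and leaving out Saline 2, 7 and 8 gave -0.94 (adjusted p = 2.54e-05). With median ratio scaling as well it was -0.76 (adjusted p = 0.000105).

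The subunits did not change in the same proportion. The FPKM ratio of Gucy1a1 to Gucy1b1 had a lowest, median and highest value of 0.345, 0.439 and 0.494 in Ang II aortas and 0.486, 0.585 and 1.10 in Saline aortas. In 7 of 8 Ang II libraries it was below every Saline library. The log2 difference was -0.54 (exact permutation p = 0.000311, adjusted p = 0.00218 over 7 ratios), and it was -0.34 without Saline 2, 7 and 8 (adjusted p = 0.0109). A ratio within a library does not depend on how libraries are scaled to each other. A trend on gene length need not cancel in it, as the deposited lengths are 6968 bases for Gucy1a1 and 3927 bases for Gucy1b1. The part of such a trend in the ratios was not tested. Across Ang II libraries Gucy1a1 and Gucy1b1 correlated with r = 0.75 (exact permutation p = 0.0595, adjusted p = 0.0793) and rho = 0.24 (p = 0.582), and r was 0.51 without the 2 farthest libraries. The ratio of Gucy1b1 to the geometric mean of the smooth muscle markers was 0.145 to 0.187 in Ang II aortas, against 0.214 to 0.230 in the 5 Saline libraries and 0.0821 to 0.180 in Saline 2, 7 and 8. Its log2 difference was -0.12 over all libraries (exact permutation adjusted p = 0.831) and -0.41 without those 3 (adjusted p = 0.00544).

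**Figure D2:**
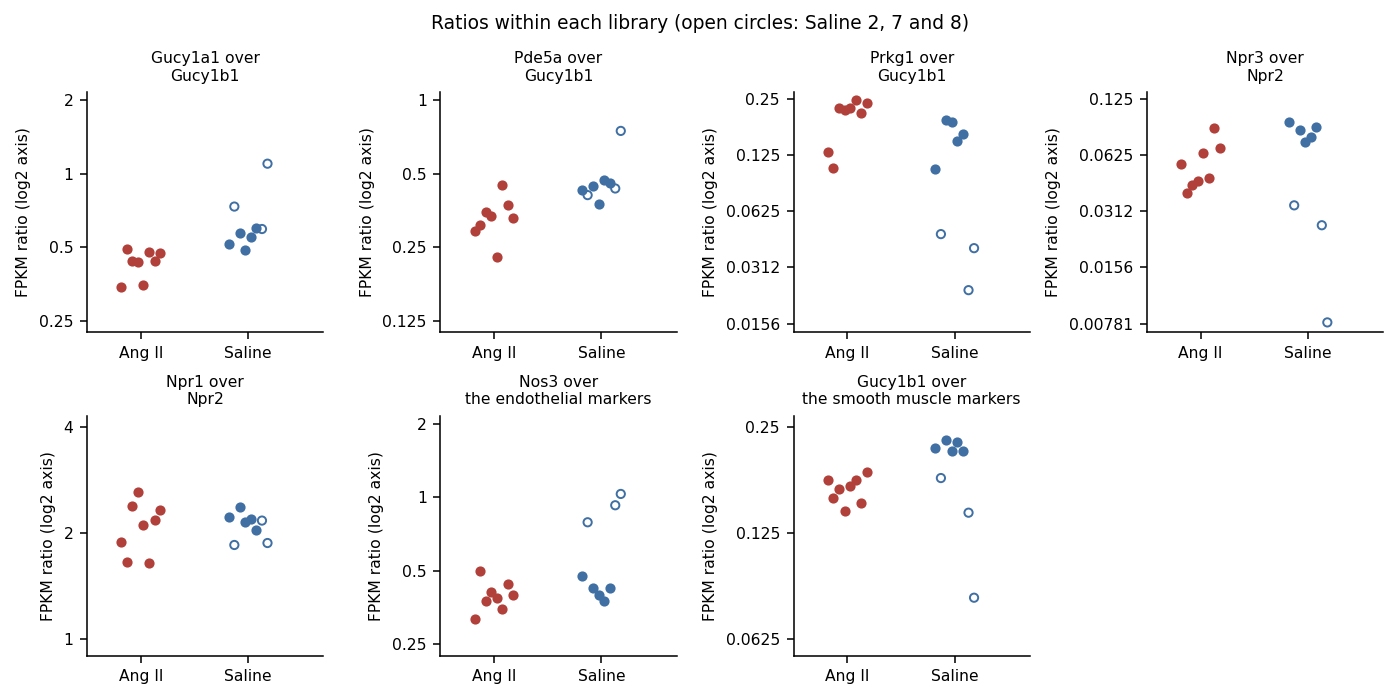
Ratios of FPKM within each library on log2 axes, Ang II left and Saline right, for the 7 ratios compared. Points are libraries and open circles are Saline 2, 7 and 8. The ratio of Gucy1a1 to Gucy1b1 was 0.345 to 0.494 in Ang II libraries and 0.486 to 1.10 in Saline libraries, while Npr1 over Npr2 overlapped throughout.

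Npr1, the receptor of atrial and B-type natriuretic peptides (chromosome 3, 90450591 to 90465866), had the highest FPKM of the 10 genes in both groups. Its lowest, median and highest levels were 156, 220 and 258 FPKM in Ang II aortas and 259, 302 and 605 FPKM in Saline aortas. The groups did not overlap, but the gap was narrow: the highest Ang II library held 258.3 FPKM and the lowest Saline library 258.6 FPKM. The mean was 216 ± 28.6 FPKM in Ang II and 352 ± 117 FPKM in Saline (SD, n = 8 each), with a log2 fold change of -0.65 (SE 0.16, limma adjusted p = 0.00500). Saline 2, 7 and 8 were the highest libraries here, with 401, 407 and 605 FPKM. Without them the log2 fold change was -0.39 (adjusted p = 0.00938), and with median ratio scaling as well it was -0.21 (adjusted p = 0.125), the 1 of 29 alternatives in which the fall did not pass. Gm16048 on the opposite strand overlaps 11.7% of the exon bases.

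Npr2, the receptor of C-type natriuretic peptide, had lowest, median and highest levels of 82.8, 96.9 and 156 FPKM in Ang II aortas and 123, 132 and 322 FPKM in Saline aortas. In 6 of 8 Ang II libraries it was below every Saline library, with Ang II 2 and Ang II 6 inside the Saline range, and Saline 8 was again far above the rest. The mean was 106 ± 25.9 FPKM in Ang II and 170 ± 70.4 FPKM in Saline (SD, n = 8 each), with a log2 fold change of -0.63 (SE 0.20, limma adjusted p = 0.0203). The call was lost in 4 of 29 alternatives. These were median ratio scaling (-0.49, adjusted p = 0.0861), quantile normalization (-0.41, adjusted p = 0.104), leaving out Saline 2, 7 and 8 (-0.30, adjusted p = 0.0992) and that with median ratio scaling (-0.13, adjusted p = 0.525). The ratio of Npr1 to Npr2 had a median of 2.15 in Ang II aortas and 2.17 in Saline aortas, and its log2 difference was -0.02 (exact permutation p = 0.831). Adipocyte markers summed to 65.7 to 201 FPKM in Ang II aortas and 99.5 to 484 FPKM in Saline aortas. Of the 10 tested, 4 fell and 0 rose, where 24.9% of all tested genes fell and 9.54% rose. Only 2 of the 10 fell without Saline 2, 7 and 8, where 26.4% of tested genes did. The sum of the adipocyte markers was highest in Saline 8, the library with the highest Npr1 and Npr2, and their part in these levels was not tested.

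Npr3, which binds and clears natriuretic peptides and has no cyclase domain, was the lowest of the 10 in FPKM. Its lowest, median and highest levels were 3.84, 6.17 and 8.72 FPKM in Ang II aortas and 2.55, 9.80 and 11.7 FPKM in Saline aortas. Saline 2, 7 and 8 held 7.25, 4.91 and 2.55 FPKM, and the other 5 Saline libraries held 8.96 to 11.7 FPKM, above all 8 Ang II libraries. The log2 fold change was -0.41 (SE 0.24, limma adjusted p = 0.193), which did not pass, and -0.60 (adjusted p = 0.0162) without Saline 8 alone. Without Saline 2, 7 and 8 it was -0.81 (adjusted p = 0.000960), and with median ratio scaling as well -0.65 (adjusted p = 0.00437). Saline 2, 7 and 8 were thus the lowest Saline libraries for Npr3 and the highest for Npr1 and Npr2. The ratio of Npr3 to Npr2 turned its sign, with a log2 difference of 0.18 over all libraries (exact permutation adjusted p = 0.831) and -0.61 without Saline 2, 7 and 8 (adjusted p = 0.0204).

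Prkg1, the kinase that carries the cGMP signal in smooth muscle (chromosome 19, 30567551 to 31765033), had lowest, median and highest levels of 6.30, 13.8 and 21.3 FPKM in Ang II aortas and 1.39, 15.5 and 28.1 FPKM in Saline aortas. Saline 2, 7 and 8 held only 3.56, 1.66 and 1.39 FPKM, below every Ang II library, and the other 5 Saline libraries held 11.4 to 28.1 FPKM. The level in Saline 8 rested on 35 reads. The mean was 13.4 ± 4.75 FPKM in Ang II and 13.6 ± 10.5 FPKM in Saline (SD, n = 8 each), with a log2 fold change of 0.43 (SE 0.50, limma adjusted p = 0.528). Without Saline 2, 7 and 8 the sign turned, to -0.60 (adjusted p = 0.0763), and the change did not pass in any of the 29 alternatives. The ratio of Prkg1 to Gucy1b1 had medians of 0.219 in Ang II aortas and 0.127 in Saline aortas, a log2 difference of 1.10 (exact permutation adjusted p = 0.0529) that was 0.30 without Saline 2, 7 and 8 (adjusted p = 0.315). Across Ang II libraries the 2 genes correlated with r = 0.74 (exact permutation p = 0.0325, adjusted p = 0.0520) and rho = 0.74 (p = 0.0458), and r was 0.73 without the 2 farthest libraries.

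**Figure D3:**
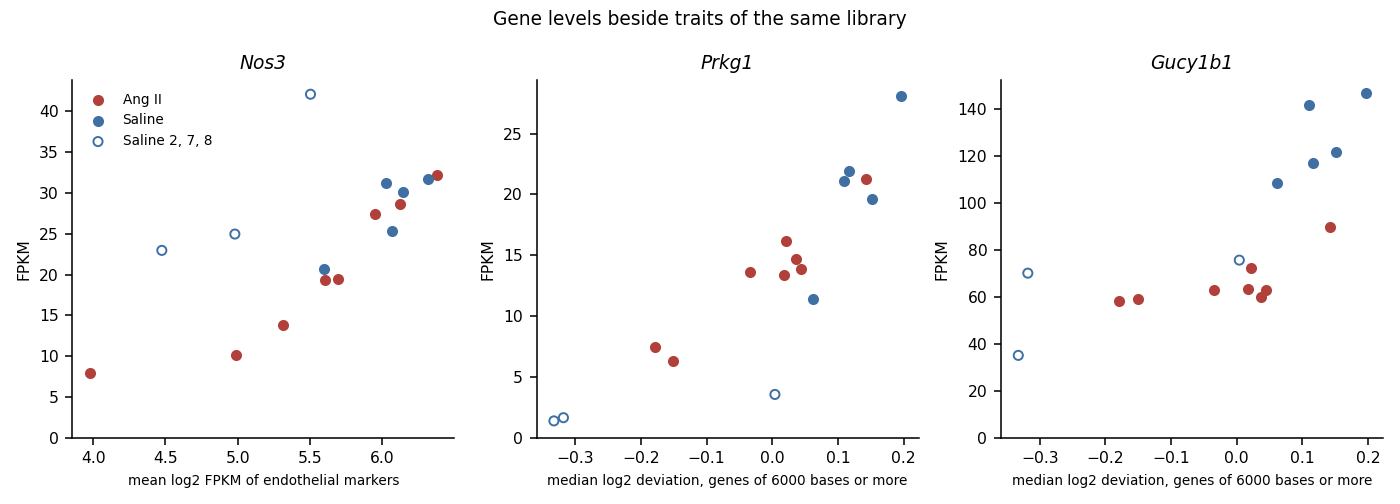
FPKM of Nos3 beside the mean log2 FPKM of the endothelial markers (left), and FPKM of Prkg1 and Gucy1b1 beside the median log2 deviation of genes of 6000 bases or more (middle and right). Each point is a library, and open circles are Saline 2, 7 and 8. Nos3 rises with the markers in Ang II libraries, while Saline 7 and Saline 8 lie at the low end of the long-gene axis with Prkg1 at 1.66 and 1.39 FPKM.

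The long-gene measures moved with these levels. Prkg1 spans 1197483 bases with a deposited length of 7799 bases, and its 3 lowest Saline libraries include both with a long-gene median under -0.3. Saline 2 had a median of 0.004 by deposited length. By genomic span (genes of 200000 bases or more) Ang II libraries had medians of -0.23 to 0.19. Those of Saline 2, 7 and 8 were -0.13, -0.38 and -0.51, and those of the remaining 5 ran from 0.09 to 0.31. Among Ang II libraries, Ang II 1 and Ang II 2 had the lowest long-gene medians (-0.18 and -0.15) and the lowest Prkg1 (7.50 and 6.30 FPKM). With the trend on deposited length subtracted in each library, an alternative chosen after seeing the data, none of the 10 calls changed. The log2 fold changes were then 0.35 for Prkg1 (limma adjusted p = 0.580), 0.10 for Pde3a (0.750), -0.51 for Npr3 (0.0583) and -0.52 for Gucy1b1 (0.0901). A trend on genomic span was not tested.

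Pde5a, the cGMP-specific phosphodiesterase of smooth muscle (chromosome 3, 122728947 to 122859374), fell by nearly as much as Gucy1a1. Its lowest, median and highest levels were 16.5, 21.6 and 29.7 FPKM in Ang II aortas and 26.3, 45.4 and 67.2 FPKM in Saline aortas. In 6 of 8 Ang II libraries it was below every Saline library, and the overlap was with Saline 8 alone. The mean was 21.9 ± 4.71 FPKM in Ang II and 45.9 ± 15.9 FPKM in Saline (SD, n = 8 each), with a log2 fold change of -0.98 (SE 0.19, limma adjusted p = 0.00108), or -0.86 relative to the median of all genes. The fall passed in all 29 alternatives, between -1.32 and -0.84, with a highest adjusted p of 0.00587. The ratio of Pde5a to Gucy1b1 had medians of 0.334 in Ang II aortas and 0.441 in Saline aortas, a log2 difference of -0.50 (exact permutation p = 0.00155, adjusted p = 0.00544) that was -0.41 without Saline 2, 7 and 8 (adjusted p = 0.0204). Across Ang II libraries the 2 genes correlated with r = 0.45 (exact permutation p = 0.272, adjusted p = 0.311) and rho = 0.33 (p = 0.428).

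Neither of the other phosphodiesterases among the 10 passed. Pde1a, which calcium and calmodulin activate, had lowest, median and highest levels of 6.67, 9.98 and 17.0 FPKM in Ang II aortas and 5.56, 12.4 and 13.3 FPKM in Saline aortas. The groups overlapped, Ang II 6 being above every Saline library, and the log2 fold change was -0.03 (SE 0.21, limma adjusted p = 0.923), or 0.10 under median ratio scaling. Saline 2, 7 and 8 held 5.56 to 8.61 FPKM of Pde1a, and the other 5 Saline libraries 12.3 to 13.3 FPKM, above 7 of the 8 Ang II libraries. Without those 3 the log2 fold change was -0.35 (adjusted p = 0.113). Pde3a, whose breakdown of cAMP is inhibited by cGMP, had 28.6, 45.9 and 55.2 FPKM in Ang II aortas and 13.3, 46.0 and 67.3 FPKM in Saline aortas. Saline 2, 7 and 8 were its lowest libraries (23.6, 20.2 and 13.3 FPKM), and the log2 fold change was 0.23 (SE 0.28, limma adjusted p = 0.552) with them and -0.33 (adjusted p = 0.108) without them.

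**Figure D4:**
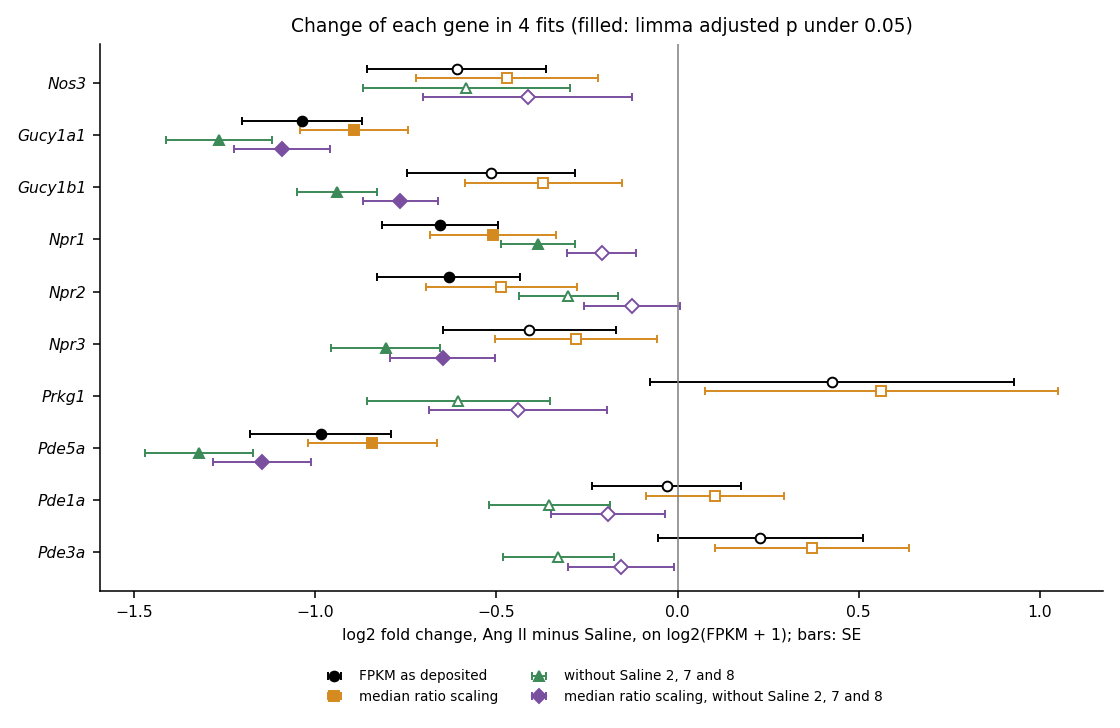
Log2 fold change (x axis, Ang II minus Saline, on log2(FPKM + 1)) of the 10 genes in 4 fits, with SE as bars and filled symbols where the limma adjusted p was under 0.05. Gucy1a1 and Pde5a are filled in all 4. Gucy1b1 and Npr3 are filled without Saline 2, 7 and 8, and Npr2 only with all libraries and no rescaling.

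The order of levels within the aorta was led by the natriuretic peptide receptors. In FPKM the mean ran Npr1, Npr2, Gucy1b1, Pde3a, Gucy1a1, Pde5a, Nos3, Prkg1, Pde1a and Npr3 in Ang II aortas, and in Saline aortas Gucy1a1 and Pde5a stood above Pde3a. Neighbours whose means differed by less than either SD were Pde5a and Nos3, and Prkg1 and Pde1a, in Ang II aortas. In Saline aortas they were Gucy1a1 and Pde5a, Pde5a and Pde3a, Prkg1 and Pde1a, and Pde1a and Npr3. For 9 of the 10 genes the FPKM gave whole reads with the mean length of the annotated transcripts, which is 1443 bases for Npr1, where the deposited gene length is 4783 bases. For Prkg1 they did so with 1691 bases and not with that mean of 2128 bases. The 1691 bases were found by a search for whole reads, and the 35 reads in Saline 8 rest on them. Scaled to the deposited length, the means were 65.3 ± 8.62 for Npr1, 35.3 ± 8.64 for Npr2 and 32.8 ± 5.24 for Gucy1b1 in Ang II aortas, and 106 ± 35.4, 56.9 ± 23.5 and 50.8 ± 19.2 in Saline aortas (SD, n = 8 each). On that scale Npr2 and Gucy1b1 differed by less than either SD in both groups, and Gucy1a1 stood sixth in Ang II aortas.

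Genes whose levels deviated from their group means most like those of Nos3, over 16 libraries and 9660 genes, were Itgb4 (Pearson r = 0.96), Card10 (0.95), Fam189a2 (0.94), Sox13 (0.92) and Rasip1 (0.91). For Gucy1b1 they were Sp3, Smyd2, Ttll7, Ubxn6 and Psip1, with r = 0.97 to 0.98, and for Npr3 they were Ankrd46, Vgll3, Acadsb, Apcdd1 and Ccni, with r = 0.93. Over the 8 Ang II libraries alone, r was 0.93 to 0.98 for the Nos3 set, 0.77 to 0.88 for the Gucy1b1 set and 0.70 to 0.76 for the Npr3 set. The r over 16 libraries take in the split of the Saline libraries into sets of 5 and 3, and either set is too small for an r of its own. All these values come from the same libraries and depths and are a description.

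Around the 10 genes, 6 lists held 84 symbols of the pathway, 83 of them in the table, and 52 were tested. Of these 7 rose, 14 fell and 31 did not pass, and their median log2 fold change was -0.06, beside -0.12 over all genes. Over all tested genes 9.54% rose and 24.9% fell, so in this fit the count that fell was close to the background. Under median ratio scaling 10 of the 52 rose and 12 fell, where 14.9% of tested genes rose and 14.1% fell. Without Saline 2, 7 and 8, 2 of 51 rose and 19 fell, where 8.11% of tested genes rose and 26.4% fell. Of the 14 that fell, 11 fell in every alternative run for them (Gchfr in 26), and of the 7 that rose, 2 did (Cyb5r3 and Pde7a).

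Nitric oxide synthesis and supply had 18 tested genes, of which 3 rose and 7 fell, where 9.54% of all tested genes rose and 24.9% fell. Among the 7 that fell were enzymes of tetrahydrobiopterin, the cofactor of nitric oxide synthases. Spr, which makes the cofactor, averaged 26.2 ± 3.81 FPKM in Ang II and 50.8 ± 9.01 FPKM in Saline (SD, n = 8 each; log2 fold change -0.93, limma adjusted p = 1.57e-05). For Spr every Ang II library was below every Saline library, as was the case for 5.62% of tested genes. Qdpr, which recycles the cofactor, fell by 0.55 (log2, adjusted p = 0.000586), and Gchfr is a regulator of its synthesis. Gchfr averaged 0.255 ± 0.299 FPKM in Ang II and 1.25 ± 0.604 FPKM in Saline, from 0 to 8 reads in Ang II and 5 to 23 reads in Saline. It passed the filter only through the Saline group and was tested in 26 of the 29 alternatives, and 6 genes fell without it. Prmt1, which makes the methylarginines that inhibit the synthases, fell by 0.59, Nosip, which binds the endothelial enzyme, fell by 0.66, and Asl, which regenerates arginine, fell by 0.64. Ddah2, the 7th and named after its values were seen, did not pass with median ratio scaling and without Saline 2, 7 and 8 (adjusted p = 0.0982). The 3 that rose, named after their values were seen, were Slc7a1, an arginine transporter (27.4 ± 7.62 FPKM in Ang II and 15.9 ± 5.32 FPKM in Saline), Ddah1, which degrades methylarginines (3.64 ± 2.09 FPKM in Ang II and 0.954 ± 0.685 FPKM in Saline), and Gch1, the first enzyme of tetrahydrobiopterin synthesis (2.42 ± 0.729 FPKM in Ang II and 1.41 ± 0.628 FPKM in Saline). Without Saline 2, 7 and 8 none of the 3 passed (adjusted p = 0.0787, 0.0636 and 0.128), so 0 of 17 rose and 7 fell, where 8.11% of tested genes rose and 26.4% fell. Gchfr was not tested there, and Cav1, named after its values were seen, was among the 7 (log2 fold change -0.53, limma adjusted p = 0.0181). Cav1 fell in only 1 of 29 alternatives, and its log2 fold change was 0.04 with all libraries and no rescaling. With Saline 2, 7 and 8 left out and median ratio scaling as well, Slc7a1 passed (adjusted p = 0.0286). Ddah1, Gch1 and Cav1 did not (0.0608, 0.0708 and 0.136).

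Neither of the other nitric oxide synthases reached the filter: Nos1 averaged 0.0540 FPKM in Ang II and 0.121 FPKM in Saline, and Nos2 0.428 FPKM in Ang II and 0.321 FPKM in Saline. Arg1, which competes with the synthases for arginine and is named here after its values were seen, had a median of 4.04 FPKM in Ang II and 0.472 FPKM in Saline. Its Ang II mean of 29.3 FPKM rested on Ang II 1, at 209 FPKM, the other 7 libraries being at 0.459 to 6.78 FPKM, and it did not pass (log2 fold change 1.89, limma adjusted p = 0.0540). Ang II 1 also had the highest summed level of macrophage and leukocyte markers, 701 FPKM, in ranges of 65.1 to 701 FPKM in Ang II and 22.8 to 647 FPKM in Saline. Of the 11 markers tested, 3 rose and 0 fell, where 9.54% of all tested genes rose and 24.9% fell. In the alternatives 2 to 9 of the markers rose, 7 without Saline 1 and 9 with a replicate block, and 1 fell with sample weights. The part of these cells in the level of Arg1 was not tested.

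Cyb5r3, the reductase that keeps the haem of soluble guanylyl cyclase in the form that nitric oxide can bind, rose, and 5.65% of its exon bases overlap Gm49463 on the opposite strand. Its lowest, median and highest levels were 481, 596 and 626 FPKM in Ang II aortas and 200, 308 and 374 FPKM in Saline aortas, so every Ang II library was above every Saline library, as was the case for 2.74% of tested genes. The log2 fold change was 1.00 (SE 0.13, limma adjusted p = 2.23e-05), and the rise passed in all 29 alternatives. Gucy1a2, the other alpha subunit, averaged 0.771 ± 0.370 FPKM in Ang II and 0.800 ± 0.220 FPKM in Saline and did not pass. The natriuretic peptides were near the floor of detection: Nppa, Nppb and Nppc averaged 0.0828, 0.190 and 0.0192 FPKM in Ang II and 0.0618, 0.0571 and 0.00696 FPKM in Saline. In the fit as deposited, none of the 3 tested genes of their processing passed. Ide, one of them and named after its values were seen, rose in 7 of 29 alternatives. Under median ratio scaling its log2 fold change was 0.37 (limma adjusted p = 0.0176), where 14.9% of tested genes rose.

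Among cGMP kinase partners and targets 0 of 15 tested genes rose and 7 fell, where 9.54% of all tested genes rose and 24.9% fell. The median log2 fold change of the 15 was -0.39, beside -0.12 over all genes. Ppp1r12a, the targeting subunit of the myosin phosphatase that the kinase activates, averaged 221 ± 44.0 FPKM in Ang II and 491 ± 93.4 FPKM in Saline (SD, n = 8 each; log2 fold change -1.14, limma adjusted p = 1.51e-05). Ppp1r14a, an inhibitor of the same phosphatase, averaged 402 ± 104 FPKM in Ang II and 996 ± 390 FPKM in Saline (-1.27, adjusted p = 0.000199). Rgs2, which the kinase activates to shut off receptors coupled to Gq, among them the Ang II receptor, averaged 13.6 ± 3.84 FPKM in Ang II and 41.7 ± 25.7 FPKM in Saline (-1.41, adjusted p = 0.000887). Hspb6, a small heat shock protein and kinase substrate, fell by 0.86 (log2). For Ppp1r14a, Rgs2 and Hspb6 every Ang II library was below every Saline library, as was the case for 5.62% of tested genes. Pln, which restrains the calcium pump of the sarcoplasmic reticulum, fell by 0.78 and shares 64.7% of its exon bases with other gene models. Mrvi1, which the kinase phosphorylates to curb calcium release, fell by 0.45 and Crip2, a LIM domain protein named after its values were seen, by 0.39, but neither fall passed under median ratio scaling (adjusted p = 0.0650 and 0.162). Under median ratio scaling 5 fell and 1 rose, where 14.1% of tested genes fell and 14.9% rose. Leaving out Saline 2, 7 and 8, 12 of the 15 fell, where 26.4% of tested genes did. With median ratio scaling as well 7 fell and 1 rose, where 12.5% of tested genes fell and 13.1% rose.

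Of 12 tested phosphodiesterases outside the 10 genes, 2 rose and 0 fell, where 9.54% of tested genes rose and 24.9% fell. Under median ratio scaling 3 rose and 0 fell, where 14.9% rose and 14.1% fell. Pde7a, which hydrolyses cAMP, averaged 32.3 ± 3.80 FPKM in Ang II and 21.2 ± 5.29 FPKM in Saline (SD, n = 8 each; log2 fold change 0.61, limma adjusted p = 0.00179). Pde1b, a calmodulin-dependent relative of Pde1a, averaged 4.04 ± 0.917 FPKM in Ang II and 2.79 ± 0.712 FPKM in Saline (0.42, adjusted p = 0.0259), and did not pass without Saline 2, 7 and 8 (adjusted p = 0.122) but passed with median ratio scaling as well (0.0230). Abcc4, a membrane pump that exports cyclic nucleotides, averaged 3.19 ± 0.913 FPKM in Ang II and 1.68 ± 0.741 FPKM in Saline (0.67, adjusted p = 0.0174), and likewise did not pass without them (adjusted p = 0.0765) but passed with median ratio scaling as well (0.0361).

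**Figure D5:**
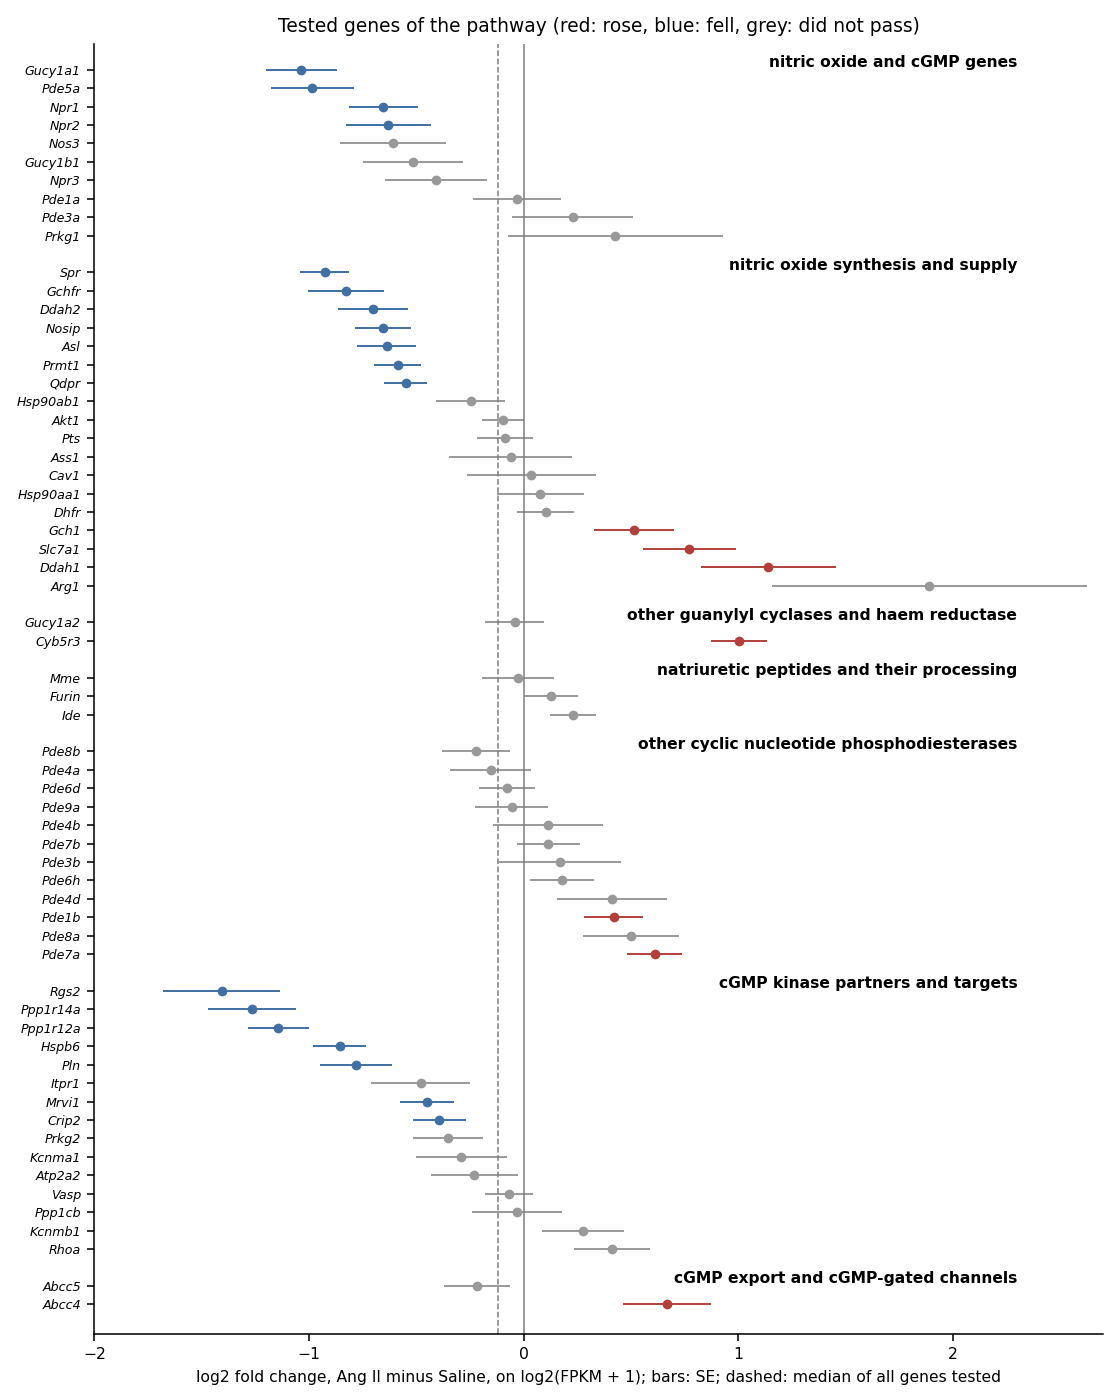
Log2 fold change (x axis, Ang II minus Saline, on log2(FPKM + 1)) with SE for every tested gene of the 10 and of the 6 pathway lists, in blocks by list. Red points rose, blue points fell and grey points did not pass, and the dashed line is the median of all tested genes (-0.12). Of the 15 kinase partners and targets 7 are blue and 0 red, where 24.9% of all tested genes fell and 9.54% rose. Cyb5r3 stands at 1.00.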

How the data were processed

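RNA-seq expression was measured in 16 libraries from mouse aortas without adventitia, 8 Ang II and 8 Saline. Libraries were made with a SMARTer mRNA kit from Trizol-extracted total RNA, per the labels' protocols. The authors deposited FPKM for 54532 genes on GRCm38 (mm10), a build named in the submitters' processing notes. For the aligner, the counter and strand use, names and settings were not given in the sources used here. Groups and replicate numbers came from the sample titles. FPKM values were whole multiples of 1 read, within 0.02 of a read, for 95.4% to 96.2% of values above 0, with transcript lengths of GENCODE M21 (99.93% of gene IDs matched), and 1 read per kilobase was worth 0.0500 to 0.0685 FPKM.

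Genes with a mean of at least 0.5 FPKM were tested with limma 3.58.1 (R 4.3.3, intensity trend) on log2(FPKM + 1), which understates changes of low genes, with Benjamini-Hochberg adjustment over 15007 genes and a two-sided threshold of 0.05. A fold change is Ang II minus Saline. The fit was tested on simulated data. The 7 ratios were tested with exact two-sided permutation tests over 12870 assignments (scipy 1.17.1), whose smallest p is 0.000155, and the 8 within-group relations with exact permutation of pairings. The values of all 10 genes are given. From each pathway list, every gene past the threshold is named, up to 6 with the smallest adjusted p; genes named beyond that are said to be. The genes and lists were chosen with earlier results of these data known. Alternatives were another pseudocount, no filter, median ratio and quantile scaling, sample weights, a rank-sum test, a subtracted trend on gene length, a count model on recovered reads, a replicate block and leaving out libraries.

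Between samples with the same replicate number, the deviations of genes from their group means correlated by -0.25 to 0.39, so the numbers were not taken to pair samples.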

Additional observations from a re-analysis of the deposited data

Results flagged for a closer look

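Values far from the rest of their group were looked for in 34 groups of 8 libraries (the 10 genes and the 7 ratios, in each treatment) with Dixon's test, where chance flags about 1 in 20 groups, and 6 were found. Ang II 8 stood above the other Ang II libraries for both cyclase subunits, with 42.5 FPKM of Gucy1a1 (next 29.2) and 89.7 FPKM of Gucy1b1 (next 72.4). Saline 8 stood above the other Saline libraries for Npr1, at 605 FPKM (next 407), and for Npr2, at 322 FPKM (next 216). Saline 8 was also highest for the ratio of Gucy1a1 to Gucy1b1, at 1.10 (next 0.736), and of Pde5a to Gucy1b1, at 0.75 (next 0.473). It had the lowest Gucy1b1 of all libraries, 35.1 FPKM.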

How the results depend on the processing

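Over 29 alternatives Gucy1a1 and Pde5a fell in all, Npr1 in 28 and Npr2 in 25, while Nos3 passed in 4 and Gucy1b1 and Npr3 in 5 each. Median ratio scaling gave 2238 higher and 2114 lower genes, and quantile normalization 2270 and 2374, against 1431 and 3741. Saline 2, 7 and 8 were themselves set apart on these data. Leaving them out with median ratio scaling as well, chosen after seeing the data, gave 1862 lower genes. Without Saline 2, 7 and 8, 2 listed pathway genes rose, the ratio of Npr3 to Npr2 turned to -0.61 (log2, adjusted p = 0.0204) and that of Gucy1b1 to the smooth muscle markers was -0.41 (adjusted p = 0.00544). The ratio of Prkg1 to Gucy1b1 passed in 7 of 20 alternatives: a pseudocount of 1 (0.94, adjusted p = 0.0348), the replicate block and leaving out Ang II 2 or Saline 3, 4, 5 or 6 (lowest adjusted p = 0.0250). Leaving out Saline 3, 4, 5 or 6 brought Nos3 over the endothelial markers past the threshold (lowest adjusted p = 0.0332), as did leaving out Saline 8 for Gucy1b1 over the smooth muscle markers (0.0417). The causes were not tested. Limma's voom on the recovered reads called 1449 genes higher and 3645 lower, with 4 of the 10 genes lower.

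Leaving out 1 library at a time, 4 to 6 of the 10 genes fell, 5 to 9 listed genes rose, and the log2 differences were 0.83 to 1.26 for Prkg1 over Gucy1b1, -0.069 to 0.027 for Npr1 over Npr2, -0.19 to 0.32 for Npr3 over Npr2, -0.59 to -0.38 for Nos3 over the endothelial markers and -0.28 to -0.067 for Gucy1b1 over the smooth muscle markers. With a replicate block 5 of the 10 genes fell, the added one being Nos3 (adjusted p = 0.0404), and Prkg1 over Gucy1b1 was 1.10 (adjusted p = 0.0182). Samples sharing a number were not taken as pairs. By deviations from the group means, Ang II 1, 3 and 6 correlated best with the Saline library of their own number, and the other Ang II libraries did not. Pairing was not tested.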
